A study of Mus musculus with 9 samples.

Results

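The genes described here are 10 heat shock chaperones of the mouse testis, chosen by name from the 55401 genes of the deposited count table, with symbols taken from the GENCODE mouse annotation (vM21). They comprise 3 chaperones named for germ cells, Hspa2, Hspa1l and Hspa4l, and 7 chaperones of most cell types, Hspa4, Hspa8, Hspa5, Hsp90aa1, Hsp90ab1, Hspd1 and Hspe1. Counts covered 9 libraries of testis poly(A) RNA from wild-type (WT) ICR mice, male by label, whose age is not given for these libraries. Input was RNA without precipitation (antibody label None), IgG was RNA recovered on beads with control immunoglobulin, and acRIP was RNA recovered with an antibody against N4-acetylcytidine (ac4C), an acetylated form of cytidine in RNA, with 3 libraries in each group. All groups share the tissue, the genotype, the poly(A) selection and the Smart-seq2 library method, which primes cDNA at the poly(A) tail and amplifies it, and the methods describe a β-globin probe carrying ac4C that was added to the RNA. Nothing in the sources used here says whether the 3 libraries of a group came from separate animals or precipitations, so p-values measure only the spread between these libraries, which may be technical.

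Chaperones of the HSP70 family bind exposed hydrophobic stretches of unfolded proteins in a cycle driven by ATP, in which J-domain proteins bring the client and HSP110 proteins and other exchange factors release it. HSP90 proteins act later, on kinases, hormone receptors and other nearly folded clients, and in the mitochondrial matrix HSP60 and HSP10 (Hspd1 and Hspe1) form a closed chamber for folding. Male germ cells carry their own HSP70 genes: Hspa2 is made in spermatocytes and is needed to complete meiosis in males, Hspa1l is made in spermatids, and Hspa4l encodes an HSP110 protein abundant in the male germ line. The question put to the data was how the transcripts of these germ-cell chaperones, next to those of the general ones, were distributed between input, IgG and acRIP libraries.

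Total counts ranged from 22023925 to 31340090 in input, from 14647542 to 18786779 in IgG and from 16025779 to 18639134 in acRIP libraries. A count of 0 allows up to 3 counts (counting error only), if single counts are independent. Most low counts were even, and whether reads or fragments were counted is not given, so this limit may be higher. Fewer genes had a count in acRIP, 22206 to 22402 per library, than in IgG, 26204 to 26874, or input, 28552 to 29642. The gene CT010467.1, annotated as rRNA and lying at the RefSeq 18S-related sequence, took 0.540% to 0.613% of the input counts, 5.14% to 5.57% of the IgG counts and 9.35% to 10.6% of the acRIP counts. The tissue label was checked on marker genes, given as summed FPKM (counts scaled by exonic length and by the library's total). In input, the 9 spermatocyte markers summed to 5754 to 5844 and the 9 spermatid markers to 27566 to 31427, while the 8 Sertoli cell markers summed to 225 to 235, with Rhox5 at 0, and the 6 Leydig cell markers to 644 to 718. The 8 spermatogonial markers summed to 34.2 to 40.2, the 5 macrophage markers to 70.3 to 74.7, the 3 peritubular markers to 14.4 to 15.1 and the 3 endothelial markers to 1.15 to 1.23. The 6 erythroid markers summed to 184 to 188 in input, 248 to 267 in IgG and 892 to 1166 in acRIP libraries. Of these genes only 1 was higher and 1 lower in acRIP over IgG (median log2 fold change -0.00), so the rise in the sum is not shared by the list. The list includes the β-globin genes Hbb-bs and Hbb-bt, and the part of the added β-globin probe in this sum was not tested. The 5 epididymal markers summed to 7.36 to 8.68, with Lcn5 and Adam7 at 0.

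The sequences of these genes bear on how far their counts can be read, because the deposited counts used uniquely mapped reads. Each principal transcript was divided into all windows of the read length and each window was searched in the genome (GRCm38.p6), allowing 1 mismatch. Hspa2, Hspa1l, Hspa4l, Hspa4, Hspa5 and Hsp90ab1 had no window that was also found elsewhere on the chromosomes. For the other 4 members the share of windows with a further match was 81.1% for Hsp90aa1, 80.5% for Hspa8, 47.2% for Hspd1 and 31.9% for Hspe1. The closest copy of Hspa8 was the pseudogene Gm15459 on chromosome 5 (chr5:5781529-5783636, minus strand), identical at 99.4% of 2108 aligned bases. In comparison, the Hspa2 and Hspa8 transcripts were identical at 76.5% of 1810 aligned bases. The same 90 bases are shown for all 3, from coding sequence of Hspa8 (chr9:40802977-40803066, plus strand), from the copy (chr5:5782899-5782988, minus strand) and from coding sequence of Hspa2 (chr12:76405110-76405199, plus strand), because they show which of these genes short reads can separate. Capitals mark bases that differ from Hspa8, of which there were 0 in the copy and 19 in Hspa2 (RefSeq sequence, GRCm38.p6).
Hspa8: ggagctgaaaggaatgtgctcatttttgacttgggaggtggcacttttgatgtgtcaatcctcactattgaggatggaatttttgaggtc
Gm15459: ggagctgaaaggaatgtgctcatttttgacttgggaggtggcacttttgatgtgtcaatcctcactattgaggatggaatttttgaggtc
Hspa2: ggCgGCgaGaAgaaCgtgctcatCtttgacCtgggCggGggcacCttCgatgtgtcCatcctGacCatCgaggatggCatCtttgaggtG
The letters of this stretch separate Hspa2 from Hspa8, but not Hspa8 from its copy.

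**Figure D1:**
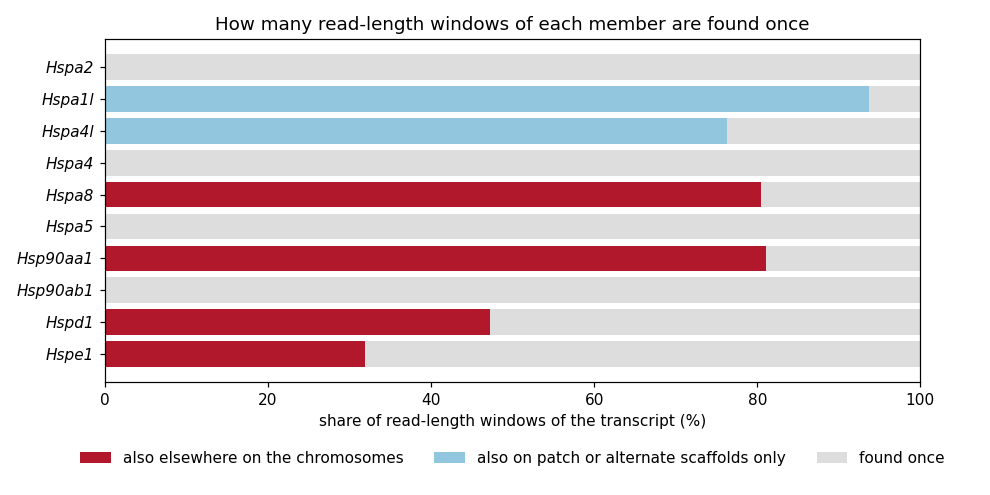
Bars give, for each of the 10 chaperones (rows), the share in percent of read-length windows of its principal transcript that are also found elsewhere on the chromosomes (red), that are also found only on patch or alternate scaffolds of the assembly (light blue) or that are found once (grey). Hsp90aa1 (81.1%) and Hspa8 (80.5%) have the largest red shares, and Hspa1l (93.7%) and Hspa4l (76.3%) have only light blue ones.

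Counts on the copies ranged from a small part of those on the gene to several times as many. Gm15459 held 3023, 1996 and 2174 counts in the 3 input libraries, whereas Hspa8 held 884, 666 and 624. Over its 3 pseudogene copies, 3.86 counts in input, 4.14 in IgG and 4.02 in acRIP fell on a copy for each count on Hspa8. Hspa8 is the constitutive cytosolic HSP70 of most cells, and its level here is therefore uncertain. For Hsp90aa1, the inducible cytosolic HSP90, the copies Gm12346 and Gm5844 added 0.477 counts in input, 0.516 in IgG and 0.568 in acRIP for each count on the gene. For Hspd1, the single copy Hspd1-ps3 added 0.307, 0.213 and 0.154 counts, in the same order. The copy of Hspe1, 99.1% identical over 536 bases, lies in AC117239.2, annotated as protein coding, which held 348, 336 and 282 counts in input, beside 602, 364 and 377 on Hspe1. The split of reads between gene and copy affects levels compared between genes, and its part in the differences between groups was not tested for single genes.

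In input RNA, Hspa2 was the highest of the 10 chaperones per kilobase. It lay at 282, 268 and 261 FPKM in the 3 input libraries (271 ± 10.8, mean ± SD, n = 3), above 98.4% of the tested protein-coding genes, as a percentile of this input mean. The next were Hsp90aa1 with 127 ± 1.33 FPKM and Hspa5, the HSP70 of the endoplasmic reticulum (BiP), with 115 ± 0.739 FPKM. All input libraries of Hspa2 lay above all those of Hsp90aa1, and those of Hsp90aa1 above those of Hspa5. The exonic length of Hsp90aa1 was also scaled by the share of its principal transcript's windows found once. Its input level then became 673 FPKM, which is above that of Hspa2, so the order of these genes depends on the treatment of the copies. This scaling is rough, since other exonic bases were not searched and a window stands for a single read, whereas sequencing was paired-end. It also counts a window as found elsewhere at 1 mismatch, though a read with such a mismatch may still map uniquely. Scaled levels may therefore be too high, and the order of Hspa2 and Hsp90aa1 is left undecided. Hspa4, the general HSP110 protein, and Hsp90ab1, the constitutive cytosolic HSP90, followed with 75.2 ± 0.993 and 73.6 ± 2.64 FPKM, and their libraries overlapped. A lower set held Hspe1 (11.9 ± 0.973 FPKM) and Hspa1l (11.4 ± 0.712 FPKM), which overlapped, then Hspd1 (9.48 ± 0.138 FPKM) and Hspa8 (6.71 ± 0.279 FPKM). The exonic lengths used exceed those of the principal transcripts unevenly. They were 4301 against 2394 bases for Hspa8 and 1474 against 774 for Hspe1, but 2472 in both cases for Hspa1l. Levels of Hspa8 and Hspe1 would thus be higher beside Hspa1l with principal transcript lengths. With lengths scaled by the share of windows found once, Hspa8 came to 34.4, Hspd1 to 18.0 and Hspe1 to 17.5 FPKM. These are levels in whole testis, where fewer cells of a type and less RNA per cell cannot be told apart.

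**Figure D2:**
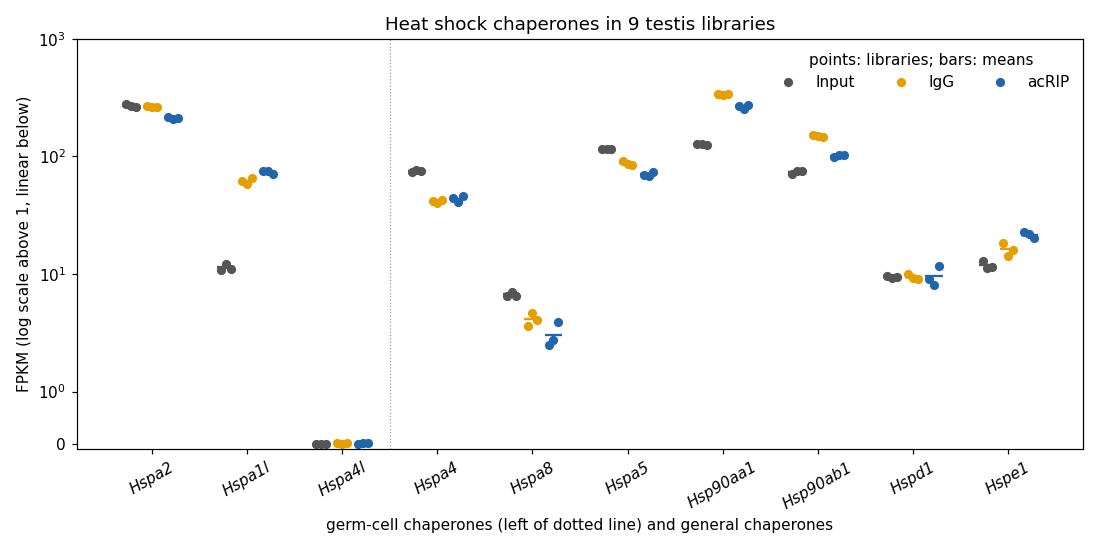
FPKM (y axis, log scale above 1) of each chaperone (x axis) in every library, coloured by group, with short bars at the group means. Hspa2 lies between 209 and 282 FPKM in all libraries, Hspa1l rises from between 10.9 and 12.2 FPKM in input to between 58.8 and 75.9 FPKM in the precipitated groups, and Hspa4l lies near 0.

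Hspa4l stood apart from the other germ-cell chaperones because almost no reads were counted on it. The input libraries held 0, 1 and 1 counts, the IgG libraries 2, 0 and 2, and the acRIP libraries 1, 3 and 5. These values are at or near the limit that a count of 0 allows, so no fold is given, and the gene did not pass the filter on low counts. The same lack of reads extended to its neighbours. From chr3:40531286 to chr3:40938138 there are 7 protein-coding genes, Intu, Slc25a31, Hspa4l, Plk4, Mfsd8, Abhd18 and 1700034I23Rik, and no library held more than 2 counts on any of the 6 others. Among them, Slc25a31 encodes an ADP/ATP carrier known from male germ cells and Plk4 the kinase that starts centriole duplication. The genes on either side had counts, 498 to 1059 for 1700017G19Rik and 1292 to 4618 for Larp1b. RefSeq places all 7 genes a further time, on a fix patch of the C57BL/6J assembly, together with the flanking 1700017G19Rik (498 to 1059 counts). Of the Hspa4l windows, 76.3% were also found only on patch or alternate scaffolds. Of the 253 protein-coding genes that RefSeq also places on such a fix patch, 227 (89.7%) had at most 10 counts in every library, against 4046 of 19359 genes (20.9%) that lie on a chromosome only and 225 of 833 (27.0%) that also lie on another scaffold. Hspa1l, with 93.7% of its windows also found only on patch or alternate scaffolds, had 606 to 844 counts in input. The kinds of scaffold were not separated for these windows, so this value does not bear on fix patches. Whether patches were part of the genome used for mapping is not given in the sources used here, and their part in the Hspa4l counts was not tested.

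**Figure D3:**
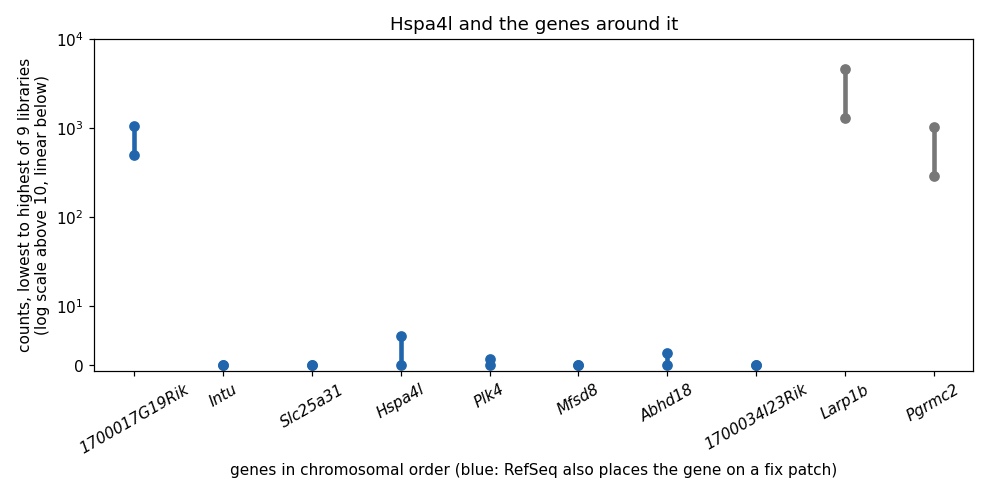
Lowest and highest count over the 9 libraries (y axis, log scale above 10) for Hspa4l, its neighbouring protein-coding genes and the flanking 1700017G19Rik, in chromosomal order along the x axis. Genes that RefSeq also places on a fix patch are blue, and from Intu to 1700034I23Rik no gene exceeds the 5 counts of Hspa4l, while 1700017G19Rik, Larp1b and Pgrmc2 have at least 289 counts in every library.

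Between acRIP and IgG, that is, the anti-ac4C antibody against its control immunoglobulin, the chaperones differed by small amounts in both directions. According to the methods, precipitated RNA was too dilute to measure, and a fixed volume of it entered each library. Higher and lower therefore refer to levels relative to the other RNAs of a library, not to amounts of RNA recovered. Of the 9 members tested, 3 were higher and 5 lower in acRIP at an adjusted p under 0.05, and none of the 9 passed with a fold change over 2. Among all 22510 genes tested, 26.4% were higher and 37.6% lower, and with a fold change over 2 the shares were 11.5% and 20.9%. The median log2 fold change of the 9 members was -0.26, beside -0.09 over all genes tested, and with 9 genes these counts show nothing particular to the chaperones.

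The germ-cell members went in opposite directions against IgG. Hspa2 lay at 218, 209 and 211 FPKM in acRIP and at 267, 261 and 264 FPKM in IgG libraries, with no overlap. It was 1.20-fold lower in acRIP (log2 fold change -0.27 ± 0.04 SE, adjusted p = 1.95e-07). Hspa1l lay at 75.9, 75.6 and 70.8 FPKM in acRIP and at 61.7, 58.8 and 65.4 FPKM in IgG libraries. These groups did not overlap either, and the gene was 1.24-fold higher in acRIP (log2 fold change 0.31 ± 0.05, adjusted p = 1.55e-05). The 9 spermatocyte markers had a median log2 fold change of -0.14 in this comparison, 2 being higher and 5 lower, and the 9 spermatid markers one of 0.15, with 6 higher and 2 lower. Their summed FPKM ranged from 5386 to 5414 in IgG and 4982 to 5238 in acRIP for spermatocytes, and from 32039 to 33110 and 32747 to 35380 for spermatids. The part of these cell types in the values of Hspa2 and Hspa1l was not tested.

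Among the general HSP70 members, Hspa5 lay at 69.9, 68.2 and 73.7 FPKM in acRIP and at 91.3, 86.4 and 83.9 FPKM in IgG, and was 1.19-fold lower in acRIP (log2 fold change -0.26 ± 0.04, adjusted p = 1.97e-06). Hspa8 lay at 2.47, 2.74 and 3.88 FPKM against 3.65, 4.64 and 4.03 FPKM in IgG. These groups overlapped, and the difference of -0.39 ± 0.14 on the log2 scale (adjusted p = 0.0137) did not pass without acRIP replicate 1 (-0.27), acRIP replicate 2 (-0.33) or IgG replicate 2 (-0.29). Hspa4 showed 44.7, 40.8 and 46.0 FPKM in acRIP and 42.1, 40.0 and 42.3 FPKM in IgG, again with overlap. Its log2 fold change of 0.13 ± 0.04 (adjusted p = 0.0106) did not pass without IgG replicate 2 (0.10), without acRIP replicate 3 (0.11) or without scaling factors (0.08).

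Both HSP90 genes were lower in acRIP than in IgG. Hsp90ab1 had the largest difference of the 9 members in this comparison, with 4800, 5688 and 5110 counts in the acRIP and 6653, 8409 and 8095 in the IgG libraries (101 ± 1.04 and 149 ± 3.19 FPKM, n = 3 each), a 1.42-fold lower level (log2 fold change -0.51 ± 0.04, adjusted p = 3.88e-12). Hsp90aa1 lay at 269, 253 and 276 FPKM in acRIP and at 340, 336 and 340 FPKM in IgG, 1.23-fold lower (log2 fold change -0.30 ± 0.03, adjusted p = 3.43e-09). Neither gene overlapped between the groups. For the mitochondrial pair, Hspe1 was higher in acRIP (22.9, 21.9 and 20.2 FPKM) than in IgG (18.3, 14.3 and 16.1 FPKM), by 1.38-fold (log2 fold change 0.47 ± 0.11, adjusted p = 0.000399). Its partner Hspd1 gave 9.16, 8.04 and 11.6 FPKM in acRIP and 9.95, 9.17 and 9.14 FPKM in IgG, which overlapped (log2 fold change 0.08 ± 0.11, adjusted p = 0.568).

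Against input, several members differed by more than they did against IgG, and Hspa1l, Hsp90aa1 and Hsp90ab1 were over 2-fold higher in IgG, without the anti-ac4C antibody. Between IgG and input, 4 of the 9 members were higher and 3 lower in IgG, and 3 passed with a fold change over 2, all of them higher. Over all genes tested, 25.9% were higher and 26.0% lower, and with a fold change over 2 the shares were 13.5% and 7.22%. The members' median was 0.02, beside -0.01 over all genes. Between acRIP and input, 4 members were higher and 4 lower, 2 and 1 of them by over 2-fold, whereas 32.0% of all genes were higher, 40.3% lower, 17.7% higher by over 2-fold and 22.9% lower by over 2-fold. The members' median was 0.10, beside -0.10 over all genes. These comparisons share the input or the precipitated libraries with one another, so their values are given side by side and not as independent results.

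Hspa1l had the largest change of any member. Its level was 10.9, 12.2 and 11.0 FPKM in input, and every precipitated library lay at or above 58.8 FPKM. It was 5.57-fold higher in IgG than in input (log2 fold change 2.48 ± 0.06, adjusted p = 4.40e-26) and 6.89-fold higher in acRIP than in input (log2 fold change 2.78 ± 0.06, adjusted p = 1.84e-27). Its log2 fold change of IgG over input exceeded that of 96.7% of all genes tested. Hspa2, in contrast, did not pass between IgG and input, where the libraries overlapped (log2 fold change -0.00 ± 0.04, adjusted p = 0.949), except with upper quartile scaling (-0.10, adjusted p = 0.0204). In acRIP over input it was 1.21-fold lower (log2 fold change -0.27 ± 0.04, adjusted p = 7.53e-08). The spermatid markers had a median log2 fold change of 0.18 in IgG over input, 5 of 9 being higher and 3 lower, and the spermatocyte markers one of -0.04, with 3 higher and 4 lower. The part of cell type in the Hspa1l value was not tested.

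In IgG over input, the HSP90 genes had the largest differences after Hspa1l. Hsp90aa1 lay at 128, 128 and 126 FPKM in input and was 2.72-fold higher in IgG (log2 fold change 1.44 ± 0.03, adjusted p = 7.58e-27) and 2.21-fold higher in acRIP (1.14 ± 0.03, adjusted p = 4.05e-24). Hsp90ab1, at 70.5, 75.3 and 74.8 FPKM in input, was 2.06-fold higher in IgG (1.05 ± 0.04, adjusted p = 6.29e-21) and 1.45-fold higher in acRIP (0.54 ± 0.04, adjusted p = 1.62e-13). For both genes all IgG libraries lay above all acRIP libraries, and these above all input libraries. The pseudogene Gm12346, 99.4% and 99.6% identical to Hsp90aa1 over stretches of 1386 and 1343 bases, was 3.07-fold higher in IgG than in input (log2 fold change 1.62 ± 0.04, adjusted p = 2.04e-26).

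The other HSP70 members were lower in both precipitated groups than in input. Hspa4, at 74.3, 76.3 and 74.9 FPKM in input, was 1.78-fold lower in IgG (log2 fold change -0.83 ± 0.04, adjusted p = 2.33e-17) and 1.62-fold lower in acRIP (-0.70 ± 0.04, adjusted p = 1.30e-15). Hspa5, at 115, 115 and 116 FPKM in input, was 1.30-fold lower in IgG (-0.37 ± 0.04, adjusted p = 9.02e-10) and 1.55-fold lower in acRIP (-0.63 ± 0.04, adjusted p = 2.61e-15). Hspa8, at 6.56, 7.03 and 6.54 FPKM in input, was 1.59-fold lower in IgG (-0.67 ± 0.13, adjusted p = 4.76e-05) and 2.09-fold lower in acRIP (-1.07 ± 0.13, adjusted p = 1.89e-08). No library of these 3 genes overlapped with input. The copy Gm15459 gave -0.62 ± 0.07 in IgG and -1.03 ± 0.07 in acRIP over input on the log2 scale (adjusted p = 1.87e-09 and 1.39e-14), beside -0.67 and -1.07 for Hspa8. A further copy, Gm8355, gave -0.24 ± 0.16 in IgG (adjusted p = 0.221) and -0.84 ± 0.17 in acRIP (adjusted p = 5.62e-05).

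Hspd1 did not pass against input in IgG (log2 fold change 0.02 ± 0.11, adjusted p = 0.907) or in acRIP (0.10 ± 0.11, adjusted p = 0.442), and its input libraries lay at 9.60, 9.33 and 9.52 FPKM. Its copy Hspd1-ps3 differed from it, being lower than input in IgG (-0.54 ± 0.21, adjusted p = 0.0315) and in acRIP (-0.91 ± 0.22, adjusted p = 0.000372). Hspe1, at 13.0, 11.2 and 11.5 FPKM in input, was 1.38-fold higher in IgG (0.47 ± 0.11, adjusted p = 0.000657) and 1.91-fold higher in acRIP (0.94 ± 0.11, adjusted p = 5.03e-09).

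**Figure D4:**
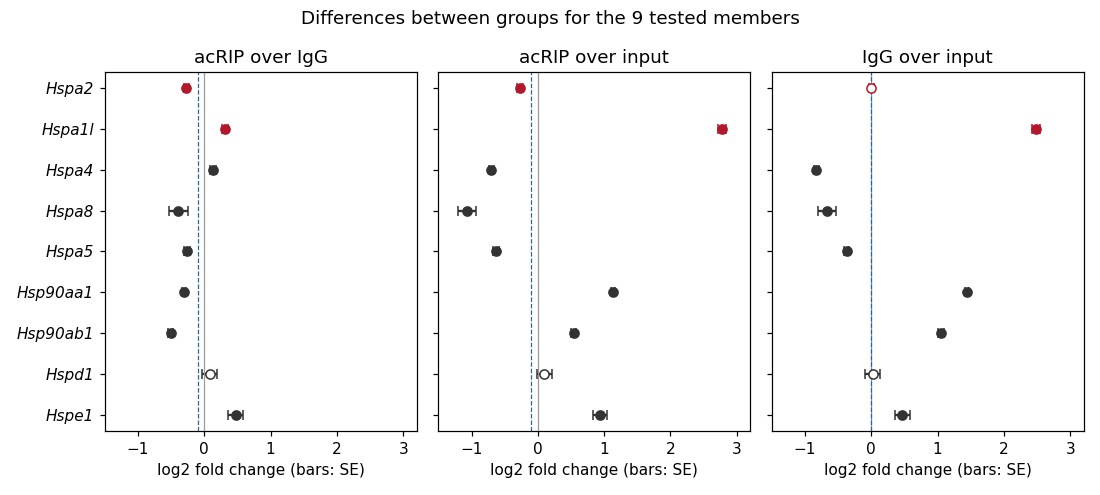
Log2 fold change with its SE (x axis) of the 9 tested chaperones (rows) in 3 comparisons, germ-cell members in red, general ones in black, open where the adjusted p was not under 0.05, with a dashed blue line at the median of all genes tested. Between acRIP and IgG the points lie between -0.51 and 0.47, whereas against input Hspa1l reaches 2.78 in acRIP and 2.48 in IgG.

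Related chaperones were also set against each other within each library, as the log2 ratio of counts per kilobase, which does not depend on the scaling between libraries. Of the 5 planned pairs, Hspa4l to Hspa4 gave no value because of the Hspa4l counts, and the other 4 were tested in 3 comparisons each. In this design the smallest 2-sided exact permutation p is 0.10, so no test could pass at 0.05. In 10 of the 12 tests the groups did not overlap and p was 0.10 (exact permutation, 0.12 after Benjamini-Hochberg adjustment over the 12 tests). Hspa1l to Hspa8 differed most between groups: the ratio was 1.66, 1.73 and 1.69 in input, 16.9, 12.7 and 16.2 in IgG and 30.8, 27.5 and 18.2 in acRIP libraries. Its log2 ratio was thus 3.16 higher in IgG and 3.88 higher in acRIP than in input, and 0.72 higher in acRIP than in IgG, and with the counts of the Hspa8 copies added these differences were 3.06, 3.80 and 0.74. Hspa2 to Hspa8 was 43.1, 38.1 and 40.0 in input, 73.3, 56.3 and 65.6 in IgG and 88.2, 76.1 and 54.4 in acRIP. The acRIP and IgG libraries overlapped in this ratio (difference 0.14 on the log2 scale, exact permutation p = 0.60), and the difference became -0.01 without acRIP replicate 1. The absolute sizes of these ratios carry the uncertainty of the Hspa8 counts and of the exonic length used for Hspa8.

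In the HSP90 pair the balance lay further towards Hsp90aa1 in both precipitated groups. Hsp90aa1 to Hsp90ab1 was 1.81, 1.70 and 1.68 in input, 2.24, 2.25 and 2.34 in IgG and 2.69, 2.48 and 2.72 in acRIP libraries, so that the 3 groups did not overlap. The log2 ratio was 0.40 higher in IgG and 0.60 higher in acRIP than in input. With the copies of Hsp90aa1 added, these differences were 0.44 and 0.69.

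**Figure D5:**
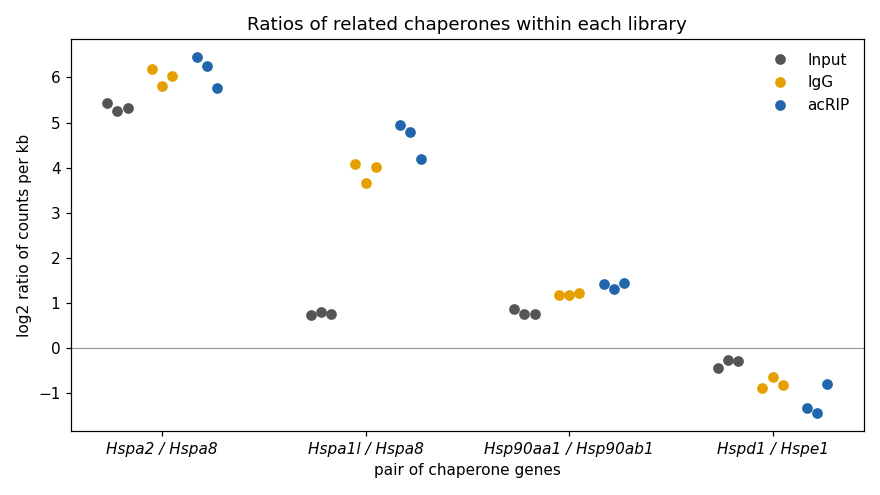
Log2 ratio of counts per kilobase (y axis) for 4 pairs of chaperone genes (x axis), 1 point per library, coloured by group. Hspa1l to Hspa8 moves from between 0.73 and 0.79 in input to between 3.66 and 4.94 in the precipitated libraries, and Hspd1 to Hspe1 is the only pair below 0.

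Hspd1 and Hspe1 encode the 2 parts of 1 chaperonin and are read in opposite directions from 1 shared promoter region on chromosome 1. The ratio of Hspd1 to Hspe1 was 0.737, 0.832 and 0.826 in input, 0.542, 0.643 and 0.569 in IgG and 0.401, 0.368 and 0.576 in acRIP libraries. The log2 ratio differed from that in input by -0.45 in IgG and by -0.86 in acRIP, whereas acRIP and IgG overlapped (-0.41, exact permutation p = 0.30). With the counts of Hspd1-ps3 added to Hspd1 these differences were -0.56, -1.04 and -0.48, and the copy of Hspe1 was not added. The shared region holds a heat shock element, the binding site of heat shock factors, searched as GAANNTTCNNGAA on both strands in the RefSeq promoter windows (GRCm38.p6), which were found for 7 of the 10 members. It was present in 198 of 32851 windows (0.603%). Among the members with a window it was found only in that of Hspe1 and in the Hspd1 window that overlaps it. A further Hspd1 window (chr1:55088194-55088493) held none. Hspa8, Hsp90aa1 and Hsp90ab1 had no window, so nothing is known here about their promoters. The element is shown because it sets this promoter apart from those of the other members with a window, with capitals marking 2 overlapping matches (chr1:55088053-55088082, plus strand).
Hspe1 and Hspd1: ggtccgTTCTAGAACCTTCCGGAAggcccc
A match describes the letters only, and no binding was measured here.

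The genes whose pattern over the 9 libraries was most like that of a germ-cell chaperone were found by the root mean square (RMS) difference of log2 CPM (library-scaled counts) after centring each gene on its mean, among 15521 protein-coding genes tested. For Hspa2 these were Tex2, Psmc3ip and H3f3b, each at an RMS of 0.039. Psmc3ip encodes a partner of the meiotic recombinases and H3f3b a replacement histone H3. They lay at 32.7, 125 and 317 FPKM in input. Their log2 IgG over input lay between -0.05 and 0.01, near that of Hspa2, which follows from how they were chosen. For Hspa1l the nearest genes were Chic2 (RMS 0.072), Ift57 (0.085) and Odf1 (0.094). Odf1 encodes a protein of the outer dense fibres of the sperm tail, and Ift57 a part of the intraflagellar transport complex. Odf1 lay at 160 ± 5.39 FPKM in input, 811 ± 18.4 in IgG and 1047 ± 12.1 in acRIP, and Ift57 at 4.60 ± 0.470, 26.3 ± 0.930 and 32.1 ± 0.601 FPKM. Chic2 lay at 2.08 ± 0.156, 11.5 ± 0.119 and 13.8 ± 1.08 FPKM, so that the pattern by which these genes were chosen occurred at input levels from 2.08 to 160 FPKM. Odf1 is also a member of the spermatid marker list. For Hspa4l no such search was made, since it was not tested.

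The wider chaperone network was described by 128 further genes, of which 124 were tested. Against IgG, 26 of them (21.0%) were higher and 50 (40.3%) lower in acRIP, beside 26.4% and 37.6% of all genes. Their median log2 fold change was -0.09, which equals the median of all genes. With a fold change over 2, 2 of the 124 were higher and 8 lower, beside 11.5% and 20.9% of all genes. In IgG over input, 32 (25.8%) were higher and 49 (39.5%) lower, beside 25.9% and 26.0% of all genes, with a median of -0.08. In acRIP over input, 38 (30.6%) were higher and 62 (50%) lower, beside 32.0% and 40.3%, with a median of -0.17. These shares were not tested against those of all genes.

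The partners of the HSP70 cycle went in both directions. Between acRIP and IgG, 26.4% of all genes tested were higher and 37.6% lower, and the shares of single lists were not tested against these. Of 43 J-domain proteins, 4 (9.30%) were higher in acRIP and 21 (48.8%) lower, against IgG (median -0.17). They ran from Dnajc28 (1.34-fold higher, log2 fold change 0.43 ± 0.08, adjusted p = 4.86e-05) to Dnajc6, the auxilin that uncoats clathrin vesicles. Dnajc6 had 30, 10 and 14 counts in the IgG libraries and 0 in all 3 acRIP libraries (adjusted p = 1.43e-05). With acRIP set at a floor of 3 counts per library it was 6.33-fold lower, and a higher floor would make this fold smaller. Among 13 exchange factors and regulators, 3 (23.1%) were higher and 5 (38.5%) lower (median 0.00). Hspbp1, an exchange factor, was 1.5-fold higher (0.58 ± 0.09, adjusted p = 1.33e-06) and Stub1, the ubiquitin ligase CHIP, 1.41-fold lower (-0.49 ± 0.13, adjusted p = 0.00107). Of the 9 other HSP70 and HSP110 genes, 2 (22.2%) were higher and 0 lower (median 0.07), or 1 lower without scaling factors. Hsph1, an HSP110 protein related to Hspa4 and Hspa4l, was the only one of them to pass without overlap of libraries, 1.43-fold higher in acRIP (0.52 ± 0.07, adjusted p = 1.76e-07).

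Of 20 other HSP90 genes and cochaperones, 4 were higher in acRIP and 11 lower, against IgG (median -0.11). Unc45b, a myosin chaperone, was 1.66-fold higher at 42 to 68 counts in IgG and 74 to 87 in acRIP (log2 fold change 0.73 ± 0.26, adjusted p = 0.0140). Aarsd1 had 14, 33 and 28 counts in IgG and 0 in all acRIP libraries, 8.0-fold lower with acRIP set at the same floor (adjusted p = 2.02e-06). The cytosolic TRiC chaperonin and prefoldin, which fold actin and tubulin, had 4 of 15 genes (26.7%) higher (2 without scaling factors) and 8 (53.3%) lower (median -0.14). The ends were the prefoldin subunits Pfdn4 (1.29-fold higher, 0.36 ± 0.10, adjusted p = 0.00244) and Vbp1 (1.52-fold lower, -0.61 ± 0.12, adjusted p = 6.33e-05).

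The 10 folding factors of the endoplasmic reticulum, which act beside Hspa5, were split into 4 higher and 3 lower (median 0.06). Pdia4, a disulfide isomerase, was 1.48-fold higher in acRIP (0.57 ± 0.09, adjusted p = 3.06e-06), and Calr4, a calreticulin relative, was 3.22-fold lower (-1.69 ± 0.26, adjusted p = 1.92e-06). Of 8 small heat shock proteins tested, 3 (37.5%) were higher and 2 (25.0%) lower (median 0.13). Hspb8 had 16 to 26 counts in IgG and 66 to 88 in acRIP, 3.80-fold higher (1.93 ± 0.30, adjusted p = 1.78e-06). Cryaa, known as a lens crystallin, had 7, 6 and 5 counts in IgG and 0 in acRIP (adjusted p = 0.000450). It was 2.02-fold lower with acRIP set at the same floor, with IgG counts that were themselves near it. The medians of these lists were the same with Dnajc6, Aarsd1 and Cryaa set at these folds against the floor.

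Among 6 heat shock factors and their partners that were tested, 2 (33.3%) were higher in acRIP and 0 lower, against IgG (median -0.01), or 2 lower without scaling factors. Of all genes, 26.4% were higher and 37.6% lower. Hsf2, a heat shock factor of meiotic cells, lay at 7.45 ± 0.0534 FPKM in input, 5.11 ± 0.464 in IgG and 11.3 ± 1.31 in acRIP. It was 2.28-fold higher in acRIP than in IgG (1.19 ± 0.07, adjusted p = 2.24e-14) and 1.60-fold higher than in input (0.68 ± 0.07, adjusted p = 4.03e-10), and 1.42-fold lower in IgG than in input (-0.51 ± 0.07, adjusted p = 5.22e-07). Hsf2bp, a binding partner of Hsf2 with a role in meiotic recombination, was 1.26-fold higher in acRIP than in IgG (0.33 ± 0.06, adjusted p = 1.19e-05) and did not pass against input (0.04 ± 0.06, adjusted p = 0.529). No chaperone member showed this order of groups with a fold change over 2 against IgG.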

How the data were processed

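Libraries were grouped by their labels (input, IgG and acRIP, 3 each). The authors trimmed reads (Trim Galore 0.6.7), mapped them to mm10 (STAR 2.7.10a) and deposited the counts of uniquely mapped reads per gene (featureCounts 2.0.2), without normalization. The annotation release, the strand setting and the counting of reads or fragments are not given in the sources used here. Of the low counts, 81.9% to 84.3% per library were even. Identifiers were matched without version to GENCODE vM21 (55141 of 55401), and 9 of 10 members had the same coordinates there. The test was edgeR 4.0.16 in R 4.3.3 (filterByExpr, TMM, quasi-likelihood over all 9 libraries), with Benjamini-Hochberg adjustment over the 22510 genes tested. "Passed" means an adjusted p under 0.05. The procedure was tested on simulated data in which most genes were unchanged. That setting does not cover these data, where 26.4% of genes passed as higher and 37.6% as lower in acRIP over IgG. DESeq2 1.42.0, other scalings and filters, and each library left out were alternatives. Windows were searched with blastn 2.17.0. Permutation tests used SciPy 1.17.1, figures matplotlib 3.10.9. FPKM was computed from total counts and the table's exonic lengths. Members, lists and tests were chosen with earlier results of these data known. Named genes were the members, the ends of each list for acRIP over IgG (adjusted p under 0.05, no overlap of libraries) and the 3 genes nearest in pattern to each germ-cell member.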

Additional observations from a re-analysis of the deposited data

How the results depend on the processing

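Over the other settings tried, 436 of 459 values for single members kept direction and side of the threshold, and all 102 counts of members passing stayed within 1.5 times. For counts this small the limit is wide. It includes a fall from 3 to 2 members higher in acRIP over IgG, as without scaling factors or without IgG replicate 2. Requiring at least 10 counts in every library left 5276 genes lower in acRIP than in IgG and 5755 lower than in input, since fewer genes with low acRIP counts were tested, and the other 100 of 102 counts over all genes stayed within 1.5 times. Hspa2 in IgG over input (-0.00) was -0.10 by upper quartile, in the same direction (adjusted p = 0.0204, the only value to gain a call). Values near 0 changed sign: that of Hspa2 was 0.01 with genes of at least 10 counts, 0.01 with only the 6 libraries compared and -0.03 to 0.03 with a library left out. Hspd1 in IgG over input was -0.08 by upper quartile, -0.01 without scaling factors, -0.01 with all genes of at least 1 count and -0.01 to 0.04 with a library left out, and against IgG and input in acRIP it was -0.07 and -0.05 without acRIP replicate 3 (ranges -0.07 to 0.19 and -0.05 to 0.22). The cause was not tested. Calls were lost for Hspa4 in acRIP over IgG (0.08 without scaling factors, 0.10 to 0.18 with a library left out) and for Hspa8 (-0.60 to -0.27). The ratio of Hspa2 to Hspa8 in acRIP over IgG ranged from -0.01 to 0.34 with a library left out. After the data had been seen, copies were added to the ratios, which moved Hsp90aa1 to Hsp90ab1 in acRIP over input to 0.69. Exonic lengths were also then scaled by the share of windows found once. This gave input levels of 34.4 FPKM for Hspa8, 673 for Hsp90aa1, 18.0 for Hspd1 and 17.5 for Hspe1. With TMM effective library sizes the input levels were 73.4 for Hspa4, 113 for Hspa5, 124 for Hsp90aa1 and 9.26 for Hspd1. Whether replicate numbers pair the samples is not known. Correlations of same-numbered deviations ran from -0.00659 to 0.0351 and of differently numbered ones from -0.0295 to 0.0271. Values so near 0 over all genes cannot decide it. With a replicate block, 5961 genes were higher in acRIP and 8436 lower, against IgG, and 3 and 5 members, as without it. Of 216 counts over the other chaperone lists, 210 stayed within 1.5 times. The others were, without scaling factors in acRIP over IgG, 2 TRiC and prefoldin genes higher, 1 other HSP70 or HSP110 gene lower and 2 heat shock factors lower, in acRIP over input 1 folding factor of the endoplasmic reticulum higher (without scaling factors and by upper quartile), and by upper quartile in IgG over input 5 small heat shock proteins lower. Low counts limit Dnajc6, Aarsd1 and Cryaa, and unique mapping limits Hspa8, Hsp90aa1, Hspd1 and Hspe1. The part of patch or alternate scaffolds in the counts of Hspa1l and Hspa4l was not tested.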
